A study of Homo sapiens with 8 samples.

Results

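The proteasome is the barrel-shaped protease that degrades proteins tagged with ubiquitin. Its core particle stacks rings of alpha subunits (PSMA genes), which gate the entrance, around rings of beta subunits (PSMB genes), of which PSMB5, PSMB6 and PSMB7 cut peptides. A regulatory particle sits on the core. Its base holds the ATPases that unfold substrates (PSMC genes) and its lid holds the deubiquitinating subunit PSMD14. In interferon-treated cells and in leukocytes PSMB8, PSMB9 and PSMB10 take the places of PSMB5, PSMB6 and PSMB7, and the resulting immunoproteasome supplies peptides for MHC class I. Other members are the activators PSME1, PSME3 and PSME4, the inhibitor PSMF1 and the chaperones that help assemble the core (PSMG genes) or the base (PSMD5, PSMD9 and PSMD10).

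The members were the genes whose symbol reads PSM, a letter between A and G and a number, taken from the probe sets annotated with 1 symbol. The rule found 42 of 19775 genes, on 81 probe sets. Each gene was represented by the probe set with the highest mean over the 8 arrays. PSMA6 and PSME2 lie only on probe sets annotated with several symbols, and PSMB11, PSMC5, PSMD7 and PSMD13 were not analysed here.

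LNCaP and 22Rv1 are human prostate cancer cell lines, and each was grown on 4 plates. An untreated plate and a plate given 10 mM caffeine, a blocker of nonsense-mediated mRNA decay, were harvested at 4 h. The other plates also had 10 mM caffeine for 4 h and were then washed and given 2 µg/ml actinomycin D, which blocks transcription, either alone or with 10 mM caffeine, up to 8 h. Each plate gave 1 array of all transcripts, so a treatment was repeated only across the lines. Actinomycin D alone against caffeine therefore differs by the transcription block, by the withdrawal of caffeine and by 4 h more of culture. Values are log2 signals, deposited after background correction and quantile normalization, and a signal of at least 4 was taken as detected (the median of all probe sets was 2.75). All 5 analysed prostate luminal markers and all 4 epithelial markers were detected on every array, and none of the 3 analysed leukocyte markers was detected on any. Of 4 fibroblast markers COL1A1 was detected on all arrays, DCN on some, and COL1A2 and COL3A1 on none.

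Of the 42 genes, 38 were detected on all 8 arrays. PSMA8, the alpha subunit made in testis, and PSMB8 were detected on none: PSMB8 read 2.27 on 7 arrays and 2.48 on the 22Rv1 array of actinomycin D alone. PSMB9 and PSMD5 were detected on some arrays only, and these genes, with PSMB10, held the widest differences in the family. PSMD5 set the lines apart, while PSMB9 set the actinomycin D plates of LNCaP apart.

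The promoters of 5 genes on which the results turn are given here, from 250 bases before to 50 after the RefSeq start on GRCh38.p14, 5′ to 3′ on the gene's strand. PSMD5 (chr9:120842873-120843172, minus strand) and PSMB10 (chr16:67936801-67937100, minus strand) differed most between the lines. PSMB9 (chr6:32853942-32854241, plus strand) and PSME1 (chr14:24135944-24136243, plus strand) were higher under actinomycin D in LNCaP, and PSME3 (chr17:42833147-42833446, plus strand) had lower signals with caffeine. Capitals mark matches, on either strand, to the antioxidant response element of NFE2L1 and NFE2L2 (TGACNNNGC) in PSMD5, PSMB9 and PSME1, to the interferon stimulated response element (GAAA, any 2 bases, GAAA) in PSMB10 and PSME1, to the interferon gamma activated site (TTCNNNGAA) in PSME3, and to the CCAAT box in PSMB9 and PSME3.
PSMD5: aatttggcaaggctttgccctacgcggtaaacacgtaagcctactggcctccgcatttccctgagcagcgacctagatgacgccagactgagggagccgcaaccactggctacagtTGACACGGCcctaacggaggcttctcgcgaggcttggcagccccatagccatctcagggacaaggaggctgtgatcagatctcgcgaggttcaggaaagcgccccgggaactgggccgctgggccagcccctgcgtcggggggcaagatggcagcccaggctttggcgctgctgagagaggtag
PSMB10: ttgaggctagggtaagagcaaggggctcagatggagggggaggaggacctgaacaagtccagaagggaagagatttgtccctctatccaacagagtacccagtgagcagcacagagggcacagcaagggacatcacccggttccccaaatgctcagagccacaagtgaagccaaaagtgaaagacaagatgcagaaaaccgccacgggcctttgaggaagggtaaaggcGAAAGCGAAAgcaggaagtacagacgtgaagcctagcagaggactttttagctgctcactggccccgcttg
PSMB9: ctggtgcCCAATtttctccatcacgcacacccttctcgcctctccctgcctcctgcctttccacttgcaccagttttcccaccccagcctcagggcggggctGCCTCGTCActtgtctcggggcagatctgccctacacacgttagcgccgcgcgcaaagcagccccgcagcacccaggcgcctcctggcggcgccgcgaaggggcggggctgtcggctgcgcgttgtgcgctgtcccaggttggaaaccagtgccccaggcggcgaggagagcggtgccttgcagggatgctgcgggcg
PSME1: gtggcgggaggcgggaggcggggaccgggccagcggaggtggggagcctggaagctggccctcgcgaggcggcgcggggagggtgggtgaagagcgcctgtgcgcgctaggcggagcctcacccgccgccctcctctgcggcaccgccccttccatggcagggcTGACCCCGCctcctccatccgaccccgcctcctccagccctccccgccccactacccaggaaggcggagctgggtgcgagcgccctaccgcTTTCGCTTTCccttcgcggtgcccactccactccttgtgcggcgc
PSME3: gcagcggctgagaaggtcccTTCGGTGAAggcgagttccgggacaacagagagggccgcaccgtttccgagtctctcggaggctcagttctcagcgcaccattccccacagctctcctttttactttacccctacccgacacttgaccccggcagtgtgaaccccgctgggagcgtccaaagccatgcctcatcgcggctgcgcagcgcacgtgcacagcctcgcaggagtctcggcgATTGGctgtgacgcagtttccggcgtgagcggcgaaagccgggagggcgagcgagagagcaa
No matches overlapped in these windows. PSMB10 has 7 CpG dinucleotides in its window, against 26 in that of PSMB9, 31 in PSME1, 29 in PSME3 and 19 in PSMD5.

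RefSeq windows were found for 36 of the 42 genes, in 43 promoters. The antioxidant response element occurred in 13 of them (30.2%), against 13.3% of the 35116 promoters of all genes, and the ETS core (CCGGAAG) in 12 (27.9%), against 10.3%. The interferon stimulated response element was found in 6 (14%), against 3.57%. These were promoters of PSMA4, PSMB4, PSMB8, PSMB10, PSME1 and PSMG4, and PSMB9 had no match. The CCAAT box was in 17 (39.5%), against 34.6%, the interferon gamma activated site in 8 (18.6%), against 7.66%, and the core of nuclear respiratory factor (GCGCA, any 1 base, GCGC) in 4 (9.3%), against 5.78%. The cAMP response element (TGACGTCA) was in none, against 1.85%. The proteasome promoters held a median of 22 CpG dinucleotides and all promoters 14, and the part of this difference in the motif shares was not tested. These matches describe letters in a window and were not measured as binding sites.

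The first comparison was between the lines, over the 4 treatments. In limma's additive fit of line and treatment, 20 of the 39 proteasome genes tested were higher in LNCaP than in 22Rv1 (51.3%) at a Benjamini-Hochberg adjusted p under 0.05, where 27.4% of the 21453 probe sets tested were higher. Only 3 were lower (7.69%), against 26.3% of all. Members were counted by the brightest probe set of a gene, while the shares of all count every probe set tested, and signal level was not matched. At an unadjusted p under 0.05 there were 24 members (61.5%), against 59.9% of all. Tested means an average signal of at least 4 over the 8 arrays, which PSMA8, PSMB8 and PSMB9 did not reach. The median estimate over the 39 genes was 0.50 on the log2 scale, against 0.02 over all tested probe sets, and 31 of the 39 estimates were above 0. The arrays of a line are treatments rather than repeated cultures, so the p-values measure how steady the line difference was over treatments, and cell line and culture cannot be told apart. Of the 23 calls, 7 were lost when 1 array was left out: PSMB4, PSMC1, PSMC2, PSMD3, PSMD6, PSMD12 and PSMG4, with an adjusted p of up to 0.130 in limma. PSMB4 and PSMC1 were lost in all 8 of these fits, the others in some.

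The largest difference was that of PSMD5, a chaperone of the ATPase ring of the base. PSMD5 read 2.61, 2.59, 2.52 and 2.54 in LNCaP (untreated, caffeine, actinomycin D alone and actinomycin D with caffeine), against 8.08, 8.22, 7.57 and 8.14 in 22Rv1. It was thus below the detection floor on every LNCaP array and well above it on every 22Rv1 array. The line estimate for PSMD5 was −5.44 (SE 0.16, limma, adjusted p = 1.14e-05). Its size rests on LNCaP signals under the floor, as do its SE and p in part. With those signals set to 4, the difference between the untreated arrays was −4.08. PSMD5 passed the filter (mean of 5.28 over the 8 arrays) only through its 22Rv1 signals. Its second probe set was under the floor in both lines (means of 2.28 in LNCaP and 2.30 in 22Rv1).

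PSMB10, the immunoproteasome subunit that replaces PSMB7, ran the other way. Its signals were 8.18, 7.54, 9.12 and 9.14 in LNCaP, against 4.95, 5.50, 6.50 and 5.84 in 22Rv1. The lowest LNCaP array lay above the highest 22Rv1 array. The line estimate for PSMB10 was 2.80 (SE 0.25, limma, adjusted p = 0.000379). PSMB7 itself was also higher in LNCaP, with signals between 12.08 and 12.39, against 11.14 to 11.73 in 22Rv1 (estimate 0.77, SE 0.14, limma, adjusted p = 0.00516).

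**Figure D1:**
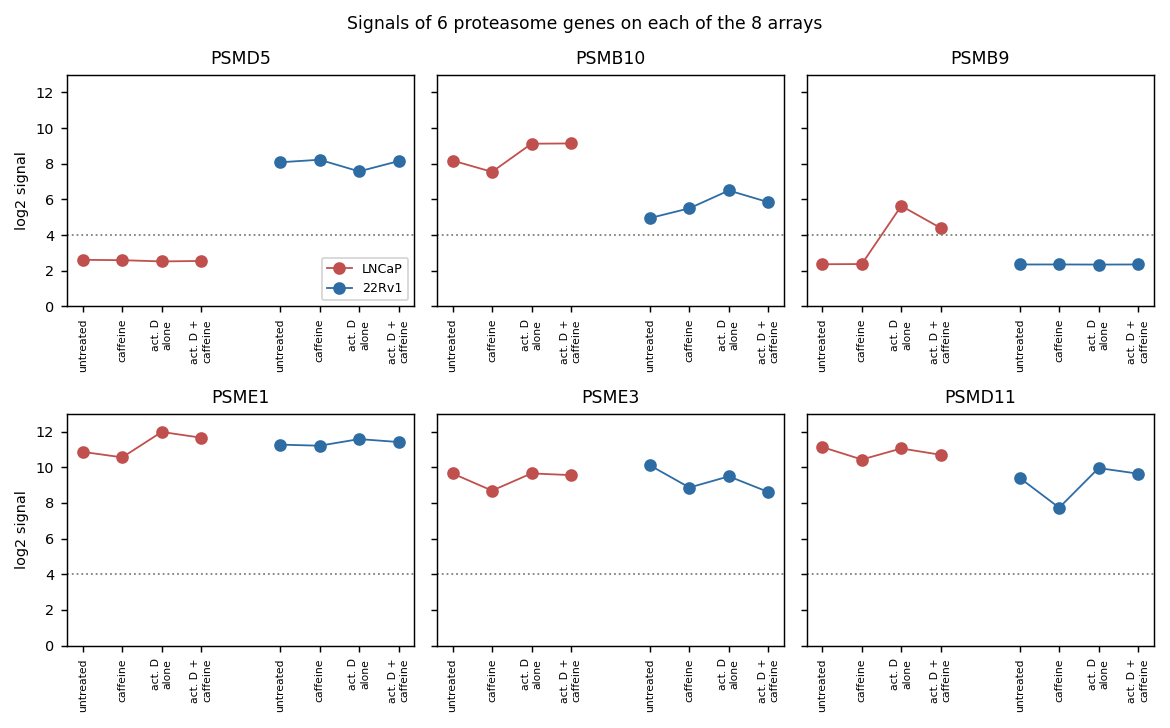
Log2 signals of 6 proteasome genes on each array; each point is 1 array, the lines join the treatments of LNCaP (red) and of 22Rv1 (blue), and the dotted line is the detection floor of 4. PSMD5 is under the floor in LNCaP only, PSMB10 is higher in LNCaP throughout, PSMB9 passes the floor on both LNCaP arrays with actinomycin D, and PSME3 and PSMD11 are lower with caffeine than untreated in both lines.

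In the core particle all 6 alpha subunits tested had estimates above 0, and PSMA3, PSMA4, PSMA5 and PSMA7 were called higher in LNCaP. Of all probe sets tested, 27.4% were called higher. PSMA3 read 12.29, 12.16, 12.02 and 12.13 in LNCaP, against 11.12, 10.52, 10.87 and 10.78 in 22Rv1. These groups did not overlap (estimate 1.33, SE 0.15, limma, adjusted p = 0.000974). The other catalytic subunits stayed close: the estimate was 0.21 for PSMB5 (limma, adjusted p = 0.259) and 0.14 for PSMB6 (adjusted p = 0.419). Among the structural beta subunits PSMB3 was higher in LNCaP (0.84, SE 0.14, limma, adjusted p = 0.00430). PSMB4 was lower in LNCaP (−0.41, SE 0.13, limma, adjusted p = 0.0421), a direction that turned (0.03) when the arrays were scaled on the poly-A controls, bacterial transcripts normally added to the RNA before labelling.

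In the regulatory particle all 6 lid subunits tested had estimates above 0. Of them 5 were called higher in LNCaP (PSMD11, PSMD14, PSMD12, PSMD3 and PSMD6), where 27.4% of all probe sets were. The calls of PSMD12 and PSMD3 were lost in 6 of the 8 fits without 1 array, and that of PSMD6 in 2. The call of PSMD11 depended on the probe set, as given below. PSMD14, which removes ubiquitin chains from the substrate, had signals of 10.97, 11.01, 11.32 and 11.29 in LNCaP, against 10.25, 9.98, 10.25 and 10.06 in 22Rv1 (estimate 1.01, SE 0.15, limma, adjusted p = 0.00253). Its lowest LNCaP array was above its highest 22Rv1 array. Of the 5 ATPases tested PSMC1, PSMC2 and PSMC4 were called higher in LNCaP, by 0.50, 0.56 and 0.86. The call of PSMC1 was lost in all 8 fits without 1 array, and that of PSMC2 in 4. None of the 3 non-ATPase subunits of the base tested (the scaffolds PSMD1 and PSMD2 and the ubiquitin receptor PSMD4) was called by limma, nor had any of them an unadjusted p under 0.05.

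The 3 assembly chaperones of the base diverged. PSMD9 was lower in LNCaP, like PSMD5, with signals of 9.57, 9.55, 9.83 and 9.92, against 10.97, 10.97, 10.89 and 11.07 in 22Rv1 (estimate −1.26, SE 0.14, limma, adjusted p = 0.000986). PSMD10, also known as gankyrin, was higher in LNCaP (1.06, SE 0.19, limma, adjusted p = 0.00568). The groups of PSMD9 arrays and those of PSMD10 arrays were separate, in opposite directions. Of the core chaperones PSMG1 (0.82) and PSMG4 (0.59) were called higher in LNCaP, while PSMG2 (−0.18) and PSMG3 (−0.05) were not called. The inhibitor PSMF1 was higher in LNCaP (0.88, SE 0.14, limma, adjusted p = 0.00324), as was PSME4, a nuclear activator (0.75, SE 0.14, limma, adjusted p = 0.00683). Both depended on the probe set. Another probe set of PSMF1 averaged 8.39 in LNCaP and 8.25 in 22Rv1, a difference of 0.14. For PSME4 another probe set ran the other way (6.68 in LNCaP and 8.39 in 22Rv1), and one near the floor ran the same way (4.34 and 3.73). The estimates of the other activators were −0.10 for PSME1 and 0.12 for PSME3, with adjusted p of 0.716 and 0.709 in limma.

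**Figure D2:**
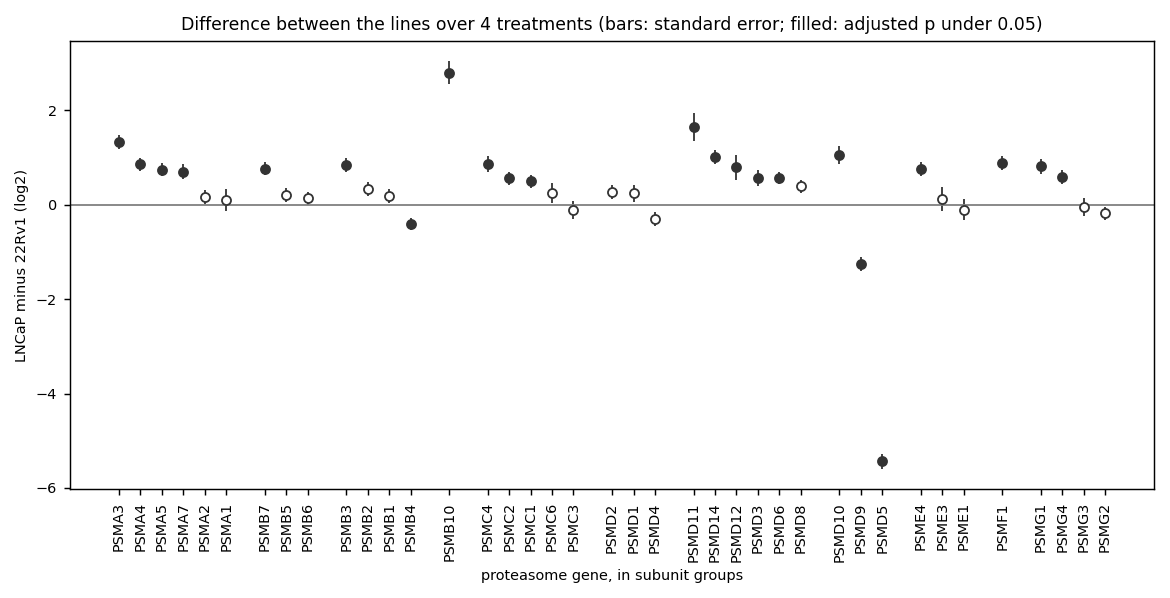
Difference between LNCaP and 22Rv1 over the 4 treatments (log2, vertical axis) for the 39 proteasome genes tested, in subunit groups along the horizontal axis; bars are standard errors of limma's estimate, and filled points have an adjusted p under 0.05. Most points lie above 0, with PSMB10 the highest at 2.80 and PSMD5 the lowest at −5.44.

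Some line differences held for 1 probe set of a gene and not for another. For PSMD11, a lid subunit, the representing probe set read 11.14, 10.44, 11.06 and 10.70 in LNCaP, against 9.41, 7.74, 9.96 and 9.64 in 22Rv1 (estimate 1.65, SE 0.30, limma, adjusted p = 0.00565). The second probe set of PSMD11 had signals of 4.31, 4.85, 4.44 and 4.72 in LNCaP, against 6.82, 6.42, 6.85 and 6.68 in 22Rv1. The PSMD11 probe sets thus ran in opposite directions between the lines, and neither stands for the gene alone. For PSMD12 the untreated lines differed by 1.63 on the representing probe set and by −0.93 on the second. When a gene's probe sets were averaged instead of taking the brightest, the line estimates of PSMC2 (−0.35), PSMD11 (−0.23) and PSME4 (−0.12) lay below 0 and were not called. Of the 38 genes then tested 18 were called, of which 16 were among the 23. These averages take in undetected probe sets too, and PSMD5 fell under the filter and was not tested.

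Between the untreated arrays alone 5 proteasome genes were higher in LNCaP by more than 1 (12.8%), namely PSMB10, PSMD11, PSMD12, PSMA3 and PSMA7, while 19.5% of the 11274 genes detected were. PSMD5 and PSMD9 were lower by more than 1 (5.13%), against 18.5% of all. At a margin of 0.5, 18 of the 39 detected were higher in LNCaP (46.2%), against 32.5% of all genes, and 2 were lower (5.13%), against 30.3%. The median of the family was 0.46, against 0.02 over all genes. The size depends on the probe sets: 24 other detected probe sets of 16 of these genes had an untreated median of 0.06, against 0.40 for the probe sets that represent the same genes, and with a gene's probe sets averaged the median line estimate over the 4 treatments was 0.26 in place of 0.50. Scaled on the poly-A controls, the untreated median of the family was 1.12, and over the 4 treatments the median estimate was 0.94 for the family and 0.46 over all tested probe sets.

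The second comparison asked what caffeine did. The proteasome genes showed no common shift. The median difference of caffeine against untreated was 0.02 over the 38 genes detected in LNCaP and −0.00 over the 39 in 22Rv1. Limma called 0 of 39 members, where it called 0.042% of all probe sets higher and 0.00466% lower. At an unadjusted p under 0.05 it had 4 of 39 (10.3%), against 17.7% of all. Those genes were PSME3, PSMG3, PSMD11 and PSMA4, all with lower signals under caffeine.

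PSME3 encodes the nuclear activator that opens the core without ubiquitin. Its signal was 8.69 with caffeine and 9.66 untreated in LNCaP, and 8.87 with caffeine and 10.11 untreated in 22Rv1. It was lower with caffeine in both lines, by 0.96 and 1.24 (estimate −1.10, SE 0.36, limma, adjusted p = 0.206). The 3 other probe sets of PSME3 ran the same way, with differences of −0.84, −0.84 and −1.01 in LNCaP and of −2.03, −1.05 and −1.93 in 22Rv1. No other proteasome gene with several detected probe sets had all of them lower by more than 0.5 in both lines.

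The signal of PSMG3, a chaperone of core assembly, was 8.35 with caffeine and 9.24 untreated in LNCaP, and 8.33 with caffeine and 8.98 untreated in 22Rv1 (estimate −0.77, SE 0.26, limma, adjusted p = 0.223). PSMD11 differed by −0.70 in LNCaP and −1.67 in 22Rv1 (estimate −1.18, SE 0.43, limma, adjusted p = 0.242), but its second probe set by 0.54 and −0.41. PSMA4 differed by −0.41 and −0.63 (estimate −0.52, SE 0.20, limma, adjusted p = 0.254). No member was higher by more than 1 with caffeine in either line, where 5.19% of genes were in LNCaP and 8.41% in 22Rv1. PSMD11 and PSME3 in 22Rv1 were the only members lower by more than 1 (2 of 39, against 6.12% of all genes), and LNCaP had none (against 3.7%).

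The catalytic subunits PSMB5, PSMB6 and PSMB7 stayed within 0.5 in every treatment comparison of both lines. Caffeine against untreated differed by 0.15 in LNCaP and −0.06 in 22Rv1 for PSMB5, by 0.09 and 0.03 for PSMB6, and by 0.23 and 0.38 for PSMB7. Over all 4 treatment comparisons, 27 of the 38 genes detected on every array stayed within 0.5 in LNCaP (71.1%) and 28 in 22Rv1 (73.7%). Of the 9347 genes detected on every array 36.5% did so in LNCaP and 42.4% in 22Rv1. A difference past 1 in any of the comparisons was seen for 5 of the 38 in LNCaP (13.2%, against 22.9% of all genes) and for 2 in 22Rv1 (5.26%, against 20.9%). The comparisons share arrays, so these shares are descriptions. Signal level was not matched between the members and all genes, and the dimmer probe sets of these genes behaved differently, as given below.

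**Figure D3:**
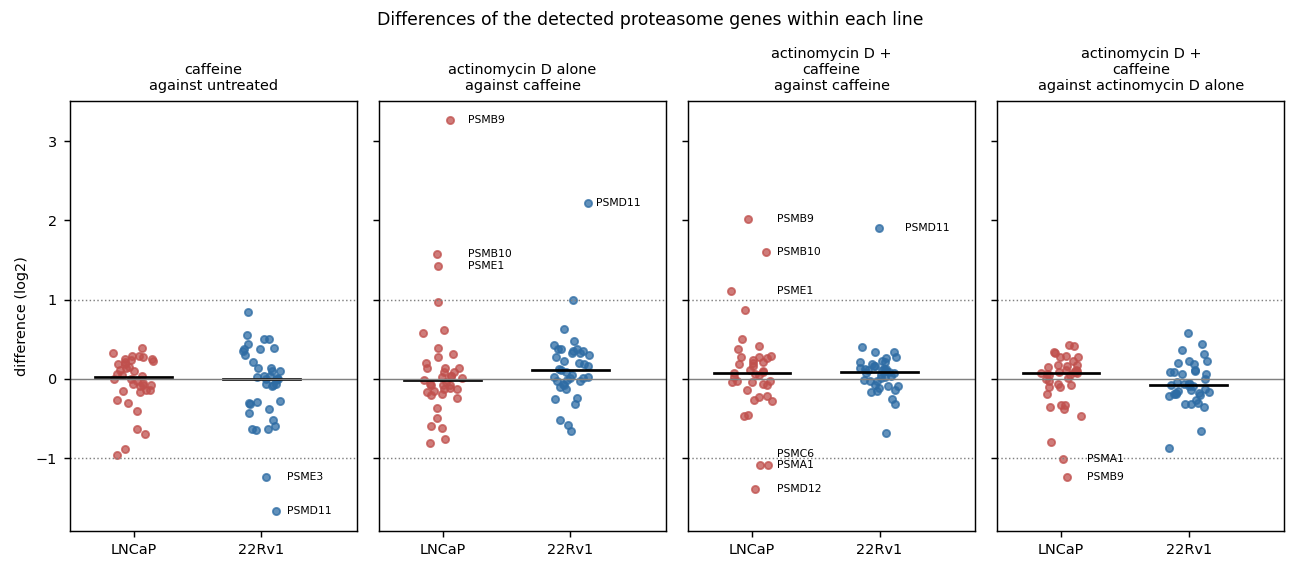
Differences (log2, vertical axis) of the detected proteasome genes in the 4 treatment comparisons, within LNCaP (red) and 22Rv1 (blue); each point is 1 gene, black bars are medians and dotted lines mark 1 and −1. The medians lie between −0.08 and 0.12, and the named genes are those past 1; scaled on the poly-A controls, the medians of both comparisons of actinomycin D against caffeine are negative (−1.54 to −0.68).

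The dimmer probe sets of these genes behaved differently. Of the 39 other member probe sets, 24 (of 16 genes) had a mean of at least 4. With caffeine their median difference was −0.18 in LNCaP and −0.42 in 22Rv1, against −0.00 and 0.06 for the probe sets that represent the same genes. Of the 24, 2 were lower by more than 1 in LNCaP and 7 in 22Rv1, and none was higher by more than 1. Among all detected genes, each by its representing probe set, 3.7% and 6.12% were lower and 5.19% and 8.41% higher. In 9 of the 16 genes another probe set differed from the representing one by more than 1 in some comparison. The dimmer probe sets of other genes were not counted, so whether these counts are particular to the family was not tested. For PSMC2, an ATPase of the base, the representing probe set read 12.02 with caffeine and 11.78 untreated in LNCaP, and 11.53 with caffeine and 11.32 untreated in 22Rv1. Another of its probe sets read 7.49 with caffeine and 8.54 untreated in LNCaP, and 7.28 with caffeine and 9.29 untreated in 22Rv1. For PSMD12 in 22Rv1 the representing probe set differed by 0.85 and the second one by −2.30. Which transcript forms the probe sets read was not determined here.

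**Figure D4:**
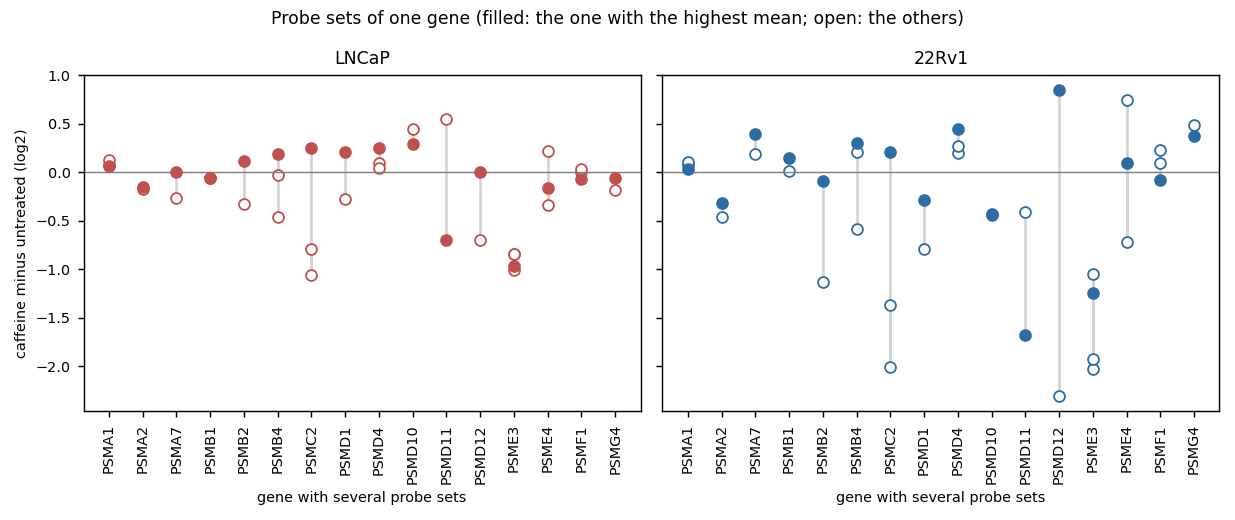
Caffeine minus untreated (log2, vertical axis) for each detected probe set of the 16 proteasome genes with several, in LNCaP (left) and 22Rv1 (right); filled points are the probe sets that represent the gene, open points the others. All probe sets of PSME3 lie below 0 in both lines, while those of PSMC2 and PSMD12 in 22Rv1 lie on both sides of 0.

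The third comparison concerned the block of transcription. After 4 h of actinomycin D alone, following caffeine, the median difference from caffeine was −0.01 over the 39 genes detected in LNCaP and 0.12 in 22Rv1, against −0.09 and 0.03 over all genes. Limma called 0 of 39 members, against 0.475% of probe sets higher and 1.86% lower. At an unadjusted p under 0.05 there were 3 members (7.69%), PSMB10, PSMD11 and PSME1, against 21.7% of all. No member was lower by more than 1, where 11.9% of genes were in LNCaP and 10.5% in 22Rv1. These differences are relative to the other transcripts on the array. The 24 poly-A control probe sets were higher with actinomycin D alone than with caffeine by 1.53 in LNCaP and by 1.18 in 22Rv1. Scaled on them, the medians of the family were −1.54 and −1.06, and 35 of the 39 members were called lower (89.7%), against 81.5% of all probe sets. The 18 hybridization control probe sets were also higher, by 0.62 in LNCaP and 0.08 in 22Rv1. With caffeine kept they were higher than with caffeine by 0.50 and 0.25. How far this bears on the poly-A scaling was not tested.

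The members higher by more than 1 in LNCaP were PSMB9, PSMB10 and PSME1 (7.69% of 39, against 4.67% of all genes), which act in the supply of MHC class I peptides. PSMB9, the immunoproteasome subunit that replaces PSMB6, read 5.63 with actinomycin D alone and 2.37 with caffeine in LNCaP, and 2.34 and 2.35 in 22Rv1. It was detected in LNCaP only with actinomycin D. Its difference in LNCaP was 3.26, or 1.63 with the caffeine signal set to the floor of 4. PSMB10 read 9.12 with actinomycin D alone and 7.54 with caffeine in LNCaP, and 6.50 and 5.50 in 22Rv1 (estimate 1.29, SE 0.35, limma, adjusted p = 0.116), but scaled on the poly-A controls it differed by 0.05 in LNCaP and −0.18 in 22Rv1. PSME1, a subunit of the interferon-inducible activator, read 11.99 with actinomycin D alone and 10.56 with caffeine in LNCaP, and 11.58 and 11.21 in 22Rv1 (estimate 0.90, SE 0.31, limma, adjusted p = 0.180), and scaled on the poly-A controls it differed by −0.10 in LNCaP and −0.81 in 22Rv1.

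Leukocytes also make the immunoproteasome, and the list mean of the 3 leukocyte markers analysed (PTPRC, CD3E and CD14) ranged over 2.27 to 2.27 in LNCaP and 2.27 to 2.40 in 22Rv1, under the floor on all arrays. Of the 15 detected genes of the MHC class I pathway and its interferon receptors, 10 were higher by more than 0.5 with actinomycin D alone than with caffeine in LNCaP, against 14.3% of all genes, with a median of 0.75, and the median was 0.25 in 22Rv1. JAK1 (−1.25), IRF2 (−0.85) and IRF1 (−0.26) were below 0 in LNCaP. Among the 10 higher ones were ERAP1, which trims peptides (1.94 in LNCaP and 0.43 in 22Rv1), TAPBP, which loads them (1.71 and −0.23), and HLA-B (1.56 and 0.27). Limma called 0 of the 15. An unadjusted p under 0.05 was seen for 5 of them, against 21.7% of all probe sets tested. These were ERAP1, HLA-F, B2M and HLA-B, with estimates above 0, and JAK1, with an estimate of −1.73. The poly-A controls were higher by more than these medians in both lines, as given above. Between the lines 7 of the 15 were called higher in LNCaP (46.7%, against 27.4% of all probe sets) and 0 lower, including TAP2, a subunit of the peptide transporter (2.22, SE 0.19, limma, adjusted p = 0.000357). The difference between the lines in the response to actinomycin D was not tested, since each line had 1 array per treatment.

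In 22Rv1 the only member past 1 was PSMD11 (2.56% of 39, against 3.16% of all genes higher by more than 1). It read 9.96 with actinomycin D alone and 7.74 with caffeine in 22Rv1, and 11.06 and 10.44 in LNCaP (estimate 1.42, SE 0.43, limma, adjusted p = 0.142), and scaled on the poly-A controls its differences were 1.05 in 22Rv1 and −0.91 in LNCaP. The second probe set of PSMD11 differed by 0.43 in 22Rv1 and by −0.41 in LNCaP on the deposited scale. On the representing probe set the untreated signal of PSMD11 in 22Rv1 was 9.41, so that the caffeine array is the low one of the 4. PSME3 likewise read 9.66 with actinomycin D alone and 8.69 with caffeine in LNCaP, and 9.49 and 8.87 in 22Rv1 (estimate 0.80, SE 0.36, limma, adjusted p = 0.263), with −0.56 and −0.55 after scaling on the poly-A controls. PSMC6, an ATPase, had lower signals in both lines (−0.76 in LNCaP and −0.58 in 22Rv1, limma, adjusted p = 0.265). The comparisons of caffeine against untreated and of actinomycin D alone against caffeine share the caffeine arrays.

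When caffeine was kept during the block, the median difference of actinomycin D with caffeine against caffeine was 0.08 in LNCaP and 0.09 in 22Rv1, against −0.00 and 0.02 over all genes. Scaled on the poly-A controls these medians were −1.06 and −0.68, and 24 of the 39 members were called lower (61.5%), against 51.9% of all probe sets. On the deposited scale limma called 0 of 39 members and 0% of all probe sets in either direction, and at an unadjusted p under 0.05 it had 3 members (7.69%; PSMB10, PSMD12 and PSMD11), against 12.3% of all. In LNCaP 3 members were higher by more than 1 (7.69%, against 4.69% of all genes): PSMB9 by 2.02, PSMB10 by 1.59 and PSME1 by 1.10. The LNCaP array of actinomycin D with caffeine, on which these values rest, had 18S ribosomal RNA probe sets that averaged 11.7, against 4.09 to 6.25 on the other LNCaP arrays and 5.09 to 7.08 on those of 22Rv1, and its part in them was not tested. On the LNCaP array of actinomycin D alone the same genes had been higher by 3.26, 1.58 and 1.43. Scaled on the poly-A controls the difference was 0.88 for PSMB9, 0.46 for PSMB10 and −0.04 for PSME1, and for PSMB9 it was 0.39 with signals under 4 set to 4. In 22Rv1 PSMD11 was higher by 1.91 (1 of 39, against 1.93% of all genes) and its second probe set by 0.26, and no member was lower by more than 1 (against 7.14%).

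In LNCaP 3 members were lower by more than 1 in this comparison (7.69%, against 8.54% of all genes): PSMD12 (−1.39), PSMA1 (−1.09) and PSMC6 (−1.09). These values too use the array with the high 18S signal, and its part in them was not tested. With actinomycin D alone PSMC6 had differed from caffeine by −0.76 in LNCaP and −0.58 in 22Rv1, and PSMD12 by −0.60 and −0.52. PSMA1, an alpha subunit, read 11.74 on that array and 12.75 to 12.83 on the other LNCaP arrays, but of its other probe sets 1 differed from caffeine by 0.16 and 1 by −1.01, where the representing one gave −1.09. PSMD12, a lid subunit, read 9.61 on that array and 10.40 on the LNCaP array of actinomycin D alone, and in 22Rv1 it read 9.54 with actinomycin D and caffeine and 10.22 with caffeine (estimate −1.04, limma, adjusted p = 0.360), and its second probe set gave 0.28 in LNCaP.

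The last comparison set actinomycin D with caffeine against actinomycin D alone, the step in which decay is blocked in 1 plate and released in the other while transcription is off. The median difference was 0.07 in LNCaP and −0.08 in 22Rv1, against 0.10 and −0.02 over all genes, and scaled on the poly-A controls it was 0.46 and 0.33. Limma called 0 of 39 members and 0% of all probe sets in either direction, and no member had an unadjusted p under 0.05, against 7.98% of all. No member was higher by more than 1 in LNCaP (against 5.32% of all genes) or in 22Rv1 (against 3.16%). PSMB9 and PSMA1 were lower by more than 1 in LNCaP (5.13%, against 3.17% of all genes) and none was in 22Rv1 (against 1.21%). Both rest on the array with the high 18S signal, whose part was not tested, and the other probe sets of PSMA1 differed by 0.06 and −0.95. PSMB9 read 4.39 with caffeine added and 5.63 without it. PSME3 in 22Rv1 read 8.62 with caffeine added and 9.49 without it, while in LNCaP it read 9.56 and 9.66.

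Genes that work with the proteasome were read from a list of 23 analysed, holding receptors, shuttles, ubiquitin genes and the transcription factors NFE2L1 and NFE2L2. Between the lines 6 were called higher (26.1%, against 27.4% of all probe sets) and 3 lower (13%, against 26.3%) in LNCaP by limma. The assembly factor POMP was higher in LNCaP (0.63, SE 0.14, limma, adjusted p = 0.0109), and so was NFE2L2 (0.58, SE 0.18, adjusted p = 0.0352), whose call was lost in 6 of 8 fits without 1 array (adjusted p up to 0.116). The shuttle UBQLN1 was lower (−1.27, SE 0.14, limma, adjusted p = 0.000765). With caffeine the median of the list was −0.08 in LNCaP and −0.01 in 22Rv1. Limma called 0 of 23, and 1 had an unadjusted p under 0.05, against 17.7% of all probe sets. That gene was ZFAND2A, a stress-induced partner of the regulatory particle, which read 9.70 with caffeine and 8.07 untreated in LNCaP, and 10.64 and 8.12 in 22Rv1 (estimate 2.07, SE 0.30, limma, adjusted p = 0.0691). With actinomycin D alone 1 of the 23 was called, ZFAND5, a ubiquitin-binding activator of the proteasome, at −1.38 in LNCaP and −1.73 in 22Rv1 (limma, adjusted p = 0.0317). This call was lost in each of the 8 fits without 1 array (adjusted p of 0.0543 to 0.188), and reached 0.364 without the line term and 0.132 with only the arrays compared. RAD23B, a shuttle of ubiquitinated proteins, differed with caffeine by −0.65 in LNCaP and −1.18 in 22Rv1 (limma, adjusted p = 0.358). In the antigen processing list JAK1, the kinase of the interferon receptors, had the largest difference with caffeine. It read 8.01 with caffeine and 5.16 untreated in LNCaP, and 8.18 and 4.79 in 22Rv1 (estimate 3.12, SE 0.31, limma, adjusted p = 0.0584). The authors report mutations in this gene in both cell lines. Whether these mutations had a part in its signals was not tested.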

How the data were processed

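Total RNA from 8 plates, 4 of LNCaP and 4 of 22Rv1, was hybridized by the authors to Affymetrix U133 Plus 2.0 arrays, 1 array per line and treatment. The deposited log2 values were made by the authors with gcRMA: background correction, quantile normalization and summarization of 54675 probe sets (RMA and GCRMA are named in the submitters' processing notes; versions are not given in the sources used here). Quantile normalization gives all arrays 1 distribution, so a shift of all transcripts cannot be seen. The number of arrays limits the precision.

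Groups were taken from the sample labels. Gene names came from the platform annotation: 41097 probe sets have 1 symbol, 1801 several and 11777 none, and only the first were used. A further 8 symbols go on after the digit (antisense and divergent transcripts, PSMC3IP and PSME3IP1) and were not members. Within a line, differences of log2 signals are given without a test, for genes with a signal of at least 4 on 1 of the arrays compared, and counted past 1 and 0.5. Across arrays, limma 3.58.1 (R 4.3.3) was fitted with line and treatment as additive terms to the 21453 probe sets that averaged at least 4 (lmFit, eBayes, two-sided, Benjamini-Hochberg adjustment over all of them, called at 0.05), with 3 residual degrees of freedom. The fit was tested on simulated data. Named genes are the catalytic and immunoproteasome subunits, activators and inhibitor, those called by limma, those with the largest differences and those whose probe sets disagree by over 1. The members and gene lists were chosen with earlier results of these data known. Promoters are RefSeq windows on GRCh38.p14, 250 bases before to 50 after the start. Alternatives changed the block, variance prior, filter, normalization and probe set and left out each array. Scaling on 24 poly-A control probe sets, and setting low signals of single genes to 4, were chosen after seeing the data.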

Additional observations from a re-analysis of the deposited data

Results flagged for a closer look

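PSMB10 moved in opposite directions with caffeine in the 2 lines. Its difference of caffeine against untreated was −0.64 in LNCaP and 0.55 in 22Rv1, each from 1 array against 1, and whether the lines differ in this response was not tested.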

How the results depend on the processing

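Of the counts of members called and the family medians, 143 values under other settings were within the spread or within 1.5 times the count. In the 4 treatment comparisons 0 members were called in the main fit and in every other setting apart from the poly-A scaling. These agreements of 0 with 0 are among the 143 and say little, since several of the settings called no probe set at all. The median line estimate was not among the values scored: with a gene's probe sets averaged it was 0.26 in place of 0.50. The 9 that moved all came from scaling on the poly-A controls, chosen after seeing the data: 35 members called lower for actinomycin D alone against caffeine (89.7%, against 81.5% of all probe sets) and 24 for actinomycin D with caffeine against caffeine (61.5%, against 51.9%), medians of −1.54 (LNCaP) and −1.06 (22Rv1) for the first, −1.06 and −0.68 for the second, 0.46 and 0.33 for actinomycin D with caffeine against actinomycin D alone, and 1.12 between the untreated lines. Single genes also turned under it, among them PSME1 in LNCaP (−0.10 and −0.036), PSME3 with actinomycin D alone (−0.56 in LNCaP and −0.55 in 22Rv1) and the line estimate of PSMB4 (0.034). For actinomycin D with caffeine in LNCaP, 1 of the other probe sets of PSMA1 gave 0.16 against caffeine and 0.059 against actinomycin D alone and the other gave −1.01 and −0.95. With other probe sets PSMD11 gave −2.52 between the untreated lines, and PSMD12 gave 0.28 for actinomycin D with caffeine in LNCaP and −0.93 between the untreated lines. The mean over probe sets turned the line estimates of PSMC2 (−0.35), PSMD11 (−0.23) and PSME4 (−0.12). The causes were not tested. Leaving out 1 array at a time gave 17 to 19 members called between the lines. PSMB4 and PSMC1 lost their call in all 8 of these fits (highest adjusted p 0.130 and 0.0680, limma). PSMD12, PSMD3 and PSMG4 lost it in 6 (highest adjusted p 0.111, 0.107 and 0.0719, limma). PSMC2 lost it in 4 and PSMD6 in 2 (highest adjusted p 0.0620 and 0.0548, limma). For the line term, leaving out the array of either line gave the same value for a treatment. The labels carry no replicate numbers, and the line term pairs the treatments within a line: without it the probe sets called for actinomycin D alone against caffeine were 0 (102 higher and 399 lower with it). A treatment has 1 array per line, so a difference within a line has no replicate check.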
